A study of Mus musculus with 14 samples.

Results

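The genes described here are 10 AP-1 and early response genes, measured in mouse hepatoblasts. They are the 4 Fos family members (Fos, Fosb, Fosl1 and Fosl2), the 3 Jun family members (Jun, Junb and Jund), and Atf3, Egr1 and Ier3. They were chosen by name and not by a filter on their values, but with earlier results of these data known. They come out of 12394 genes measured with at least 1 probe set of a single symbol. Each gene is represented by the probe set with the highest mean over all 14 arrays. Jun and Fosl1 have 2 probe sets each and the other 8 members have 1, so the members cover 12 probe sets of 22690 on the array.

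AP-1 is a family of transcription factors made of pairs of basic leucine zipper (bZIP) proteins. Jun proteins pair with themselves or with Fos or ATF proteins, whereas Fos proteins need a partner, and the pair binds a short palindromic DNA site. Fos, Fosb, Junb, Egr1, Atf3 and Ier3 are classical early response genes: growth factors, serum and cell stress raise their transcription within minutes through MAP kinases, without new protein synthesis, and their messenger RNAs are short-lived. In liver, Jun is needed for embryonic hepatogenesis and for regeneration.

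All 14 arrays carried RNA of cultured hepatoblasts, the bipotent progenitors of hepatocytes and bile duct cells, which had been isolated from wild-type mice at embryonic day 14 and immortalised by plating them at clonal density. Every culture received the same medium, with 10% serum, epidermal growth factor at 50 ng/mL, insulin-like growth factor II at 30 ng/mL and insulin at 10 μg/mL. On plates coated with rat tail collagen there were 5 groups: an empty vector control, IDH1 as wild type and as the R132C mutant, and IDH2 as wild type and as the R172K mutant. On uncoated plates, which the protocol uses for hepatocyte differentiation over at most 5 days, there were 2 groups, cells with empty vector and with IDH1 R132C. Each group had 2 cultures. The mutants are cancer-associated forms of isocitrate dehydrogenase, carried in a doxycycline-inducible system, with 25 ng/mL doxycycline in the IDH1 experiments. The vector cultures are counted with those experiments here. No dose is given for the IDH2 cultures. The labels do not say which species the inserts came from, whether the cells were 1 clone, how long each culture spent on uncoated plates, or how long after the last change of medium RNA was taken.

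Of 15 hepatoblast and hepatic markers 13 had a mean level above the lower quartile of all genes, and all 4 measured biliary markers did. Albumin and Prox1 lay below it. Of the markers of other cells, 5 of 10 mesenchymal, 3 of 8 blood and 1 of 8 endothelial genes lay above it. Passing it is a weak sign, since most genes do. Mean log2 levels of hepatic markers reached 14.28 (Krt8), but Dlk1 (5.32), Foxa3 (5.43) and Igf2 (5.56) were dim. Among mesenchymal markers Vim had a mean of 14.00, and the next was Des at 6.03. Array medians ran from 134.9 to 148.3 on the linear intensity scale, and replicates correlated over genes at r = 0.994 to 0.998. Replicate 1 of IDH2 R172K had the lowest median and belonged to the pair with the lowest correlation. On the log2 scale used below, the lower quartile of each array was 4.92 to 5.00, so a level around that value is scarcely above background.

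The promoters of Fos, Fosb and Jun are shown because Fos and Fosb fell on uncoated plates in vector cells while Jun rose there. Each line is the 100 bases before the start site that RefSeq's promoter table gives, on the gene's own strand and the build GRCm38.p6 (chr12:85473790-85473889 on the plus strand for Fos, chr7:19310046-19310145 and chr4:95052223-95052322 on the minus strand for Fosb and Jun). That start lies inside the outer bounds of Fosb given below, so 73 of its 100 bases, the marked site among them, are within the gene as annotated, against 0 for Fos and Jun. Capitals mark the core of a CREB/ATF site (TGACGT) in Fos, an EGR site (GCGNGGGCG) in Fosb, and a relative of the CREB/ATF site (TGACNTCA) in Jun.
Fos: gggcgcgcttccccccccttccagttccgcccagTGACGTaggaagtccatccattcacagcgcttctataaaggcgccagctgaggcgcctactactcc
Fosb: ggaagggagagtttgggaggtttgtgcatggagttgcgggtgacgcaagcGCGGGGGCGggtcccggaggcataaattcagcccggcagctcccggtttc
Jun: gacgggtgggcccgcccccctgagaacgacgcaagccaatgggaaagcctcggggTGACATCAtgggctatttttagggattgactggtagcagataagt

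Of the 10 members 8 have a 300-base window in that table, which covers 250 bases before the start and 50 after it. Searched on both strands, the AP-1 site TGACTCA was in 0 of these 8 windows and in 5.2% of all 32851 windows. The full CREB/ATF site TGACGTCA was in 0 of 8 and 1.79% of all, and the CArG box, the site of serum response factor, in 0 of 8 and 1.63%. The EGR site was in 2 of 8, Fosb and Fosl2, and in 5.55% of all windows. The 2 further patterns were chosen after the windows had been seen: TGACNTCA, which overlaps the full CREB/ATF site, was in 1 of 8 (Jun) and 8.83% of all, and TGACGT, which is part of that site, in 2 of 8 (Fos and Atf3) and 7.51%. These are matches of letters and not measured sites. Sequence outside the windows was not searched, so a count of 0 does not show that a gene lacks the site.

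Over the 7 groups, levels of 9 of the 10 members differed by limma's moderated F test, with p-values adjusted over all genes by the Benjamini-Hochberg method, against a background of 35.5% of all genes. The smallest adjusted p was that of Fos, 1.04e-05, and the exception was Fosl2, with an adjusted p of 0.167. All 4 uncoated arrays lay below all 10 collagen arrays for 5 members (Fos, Fosb, Fosl1, Fosl2 and Atf3; 13.6% of all genes did so) and above them for 1, Jund (15.2% of all genes).

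**Figure D1:**
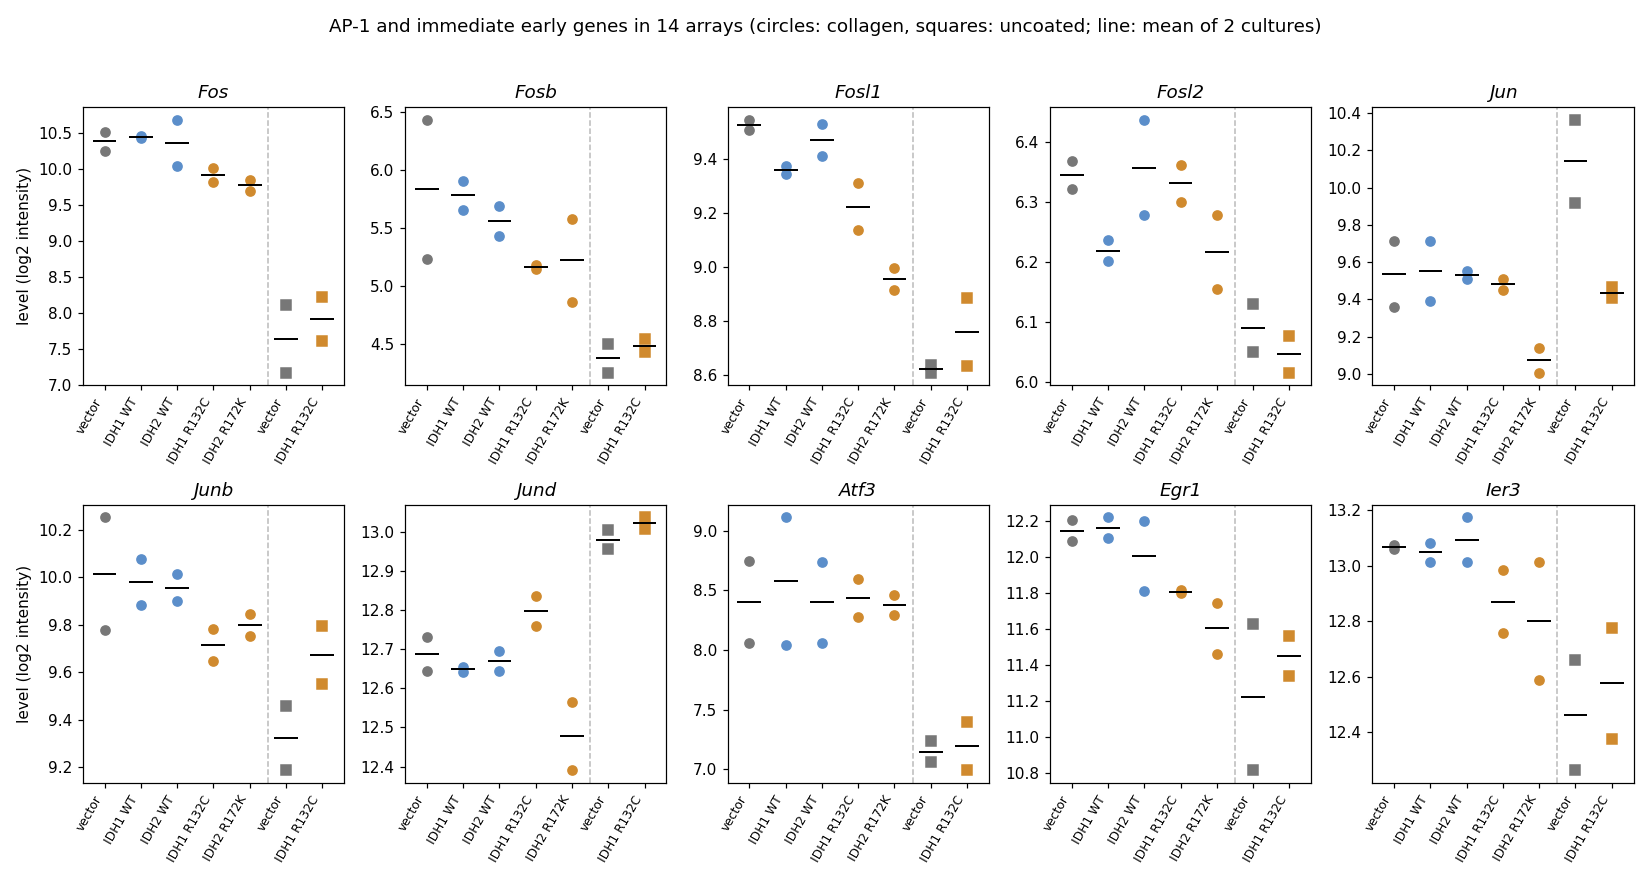
Level of each member (log2 intensity, vertical axes) on every array, by group; points are single cultures and bars the mean of 2. Fos, Fosb, Fosl1, Fosl2 and Atf3 sit lower on all 4 uncoated arrays than on all 10 collagen arrays, and Jund sits higher.

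Fos, the prototype partner of Jun (probe set 1423100_at, chromosome 12, 85473890 to 85477274), had the widest range. On collagen its 2 log2 levels were 10.52 and 10.25 with vector, 10.43 and 10.45 with wild-type IDH1, 10.04 and 10.69 with wild-type IDH2, 9.83 and 10.02 with IDH1 R132C, and 9.85 and 9.70 with IDH2 R172K. On uncoated plates they were 8.11 and 7.17 with vector and 8.23 and 7.61 with IDH1 R132C. The 4 mutant cultures were the lowest of the 10 on collagen, by 0.016 at the nearest point, and all uncoated cultures were lower still. In the order of group means, the steps without overlap were from wild-type IDH2 (10.36 ± 0.46, SD, n = 2) to IDH1 R132C (9.92 ± 0.14), and from IDH2 R172K (9.78 ± 0.11) to uncoated IDH1 R132C (7.92 ± 0.44). On uncoated plates Fos fell by 2.75 on the log2 scale in vector cells (SE 0.28, 6.71-fold lower, limma adjusted p = 1.76e-05) and by 2.01 in IDH1 R132C cells (SE 0.28, 4.02-fold, adjusted p = 0.000272).

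Fosb, a Fos relative with a strong transactivation domain (1422134_at, chromosome 7, 19302696 to 19310118), was dimmer and noisier. Its collagen levels were 6.44 and 5.23 with vector, 5.91 and 5.66 with wild-type IDH1, 5.43 and 5.69 with wild-type IDH2, 5.18 and 5.15 with IDH1 R132C, and 5.58 and 4.86 with IDH2 R172K. The 4 uncoated levels, 4.50 and 4.25 with vector and 4.54 and 4.43 with IDH1 R132C, were all under the lower quartile of their arrays, so folds against them are inexact. The 2 vector cultures on collagen held the highest and one of the lower values of the collagen arrays. Fosb fell by 1.46 in vector cells (SE 0.31, adjusted p = 0.00305). In IDH1 R132C cells the difference was -0.68 (95% interval -1.35 to -0.011, adjusted p = 0.131); in a fit of the 4 IDH1 R132C arrays alone it passed (SE 0.11, adjusted p = 0.00324).

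Fosl1, also called Fra-1, lacks that transactivation domain and is a late, stable AP-1 component (1417487_at, chromosome 19, 5447698 to 5455938). Its collagen levels were 9.51 and 9.55 with vector, 9.53 and 9.41 with wild-type IDH2, 9.35 and 9.37 with wild-type IDH1, 9.31 and 9.14 with IDH1 R132C, and 8.92 and 9.00 with IDH2 R172K. Uncoated levels were 8.89 and 8.63 with IDH1 R132C and 8.64 and 8.61 with vector. The 2 IDH2 R172K cultures thus lay between the other collagen cultures and the uncoated ones, touching neither. Fosl1 fell by 0.91 on uncoated plates in vector cells (SE 0.11, 1.87-fold, adjusted p = 5.11e-05) and by 0.47 in IDH1 R132C cells (SE 0.11, 1.38-fold, adjusted p = 0.00643). The second call was lost without replicate 1 of collagen IDH1 R132C (adjusted p = 0.0792), without replicate 2 of uncoated IDH1 R132C (0.0922) and with the mean of both probe sets (0.181). The second Fosl1 probe set, 1417488_at, is dim, with a mean of 5.48. It gave -0.40 (SE 0.15, adjusted p = 0.0777 over all probe sets) in vector cells and 0.0098 (adjusted p = 0.976) in IDH1 R132C cells.

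Fosl2, or Fra-2, a further Fos relative without the transactivation domain (1422931_at, chromosome 5, 32136472 to 32157840), ranged from 6.16 to 6.44 over collagen arrays and from 6.02 to 6.13 over uncoated ones. The 2 sets of arrays did not overlap, although neither plate difference passed the test by itself: -0.26 in vector cells (95% interval -0.50 to -0.016, adjusted p = 0.108) and -0.29 in IDH1 R132C cells (adjusted p = 0.0788). The second passed in 3 alternative settings, with the mean of probe sets (0.0467), without the intensity trend (0.0394) and with array weights (0.0353). The mean of both plate differences did pass it for Fosl2.

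Jun, the partner common to most AP-1 pairs (1417409_at, chromosome 4, 95049036 to 95052222), was the 1 member with its highest level in uncoated vector cells. Its collagen levels were 9.71 and 9.36 with vector, 9.71 and 9.39 with wild-type IDH1, 9.51 and 9.55 with wild-type IDH2, 9.51 and 9.45 with IDH1 R132C, and 9.01 and 9.14 with IDH2 R172K. On uncoated plates they were 9.92 and 10.36 with vector but 9.41 and 9.47 with IDH1 R132C. The uncoated vector cultures were the highest of all 14 and the IDH2 R172K cultures the lowest, with the other 10 arrays between them. Jun rose by 0.61 in vector cells (SE 0.16, 1.52-fold, adjusted p = 0.0102), while in IDH1 R132C cells the difference was -0.046 (95% interval -0.38 to 0.29, adjusted p = 0.875). The rise missed the threshold without replicate 2 of collagen vector (0.43, adjusted p = 0.100), without replicate 2 of uncoated vector (0.38, adjusted p = 0.126) and in a fit of those 4 arrays alone (adjusted p = 0.0543). The second Jun probe set, 1448694_at, gave 0.98 in vector cells (SE 0.18, adjusted p = 0.00125 over all probe sets) and 0.18 in IDH1 R132C cells (adjusted p = 0.544).

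Junb, which often acts against Jun on shared targets (1415899_at, chromosome 8, 84976909 to 84978748), had collagen levels of 9.78 and 10.25 with vector, 9.89 and 10.08 with wild-type IDH1, 10.01 and 9.90 with wild-type IDH2, 9.78 and 9.65 with IDH1 R132C, and 9.85 and 9.75 with IDH2 R172K. On uncoated plates they were 9.19 and 9.46 with vector and 9.55 and 9.80 with IDH1 R132C. Only the uncoated vector cultures stood below all others. Junb fell by 0.69 in vector cells (SE 0.15, 1.62-fold, adjusted p = 0.00374), a call lost without replicate 1 of uncoated vector (-0.56, adjusted p = 0.0525). With IDH1 R132C the difference was -0.041 (95% interval -0.37 to 0.29, adjusted p = 0.886).

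Jund, the constitutively expressed Jun protein (1449117_at, chromosome 8, 70697739 to 70700616), had collagen levels of 12.64 and 12.73 with vector, 12.65 and 12.64 with wild-type IDH1, 12.65 and 12.70 with wild-type IDH2, 12.84 and 12.76 with IDH1 R132C, and 12.39 and 12.56 with IDH2 R172K. Uncoated levels were 13.00 and 12.96 with vector and 13.01 and 13.04 with IDH1 R132C, above every collagen array. Jund rose by 0.29 in vector cells (SE 0.071, 1.22-fold, adjusted p = 0.00725) and by 0.23 in IDH1 R132C cells (SE 0.071, 1.17-fold, adjusted p = 0.0328). Both changes are small. The first was lost without replicate 1 of either vector group (adjusted p = 0.0788 and 0.0614), and the second without any 1 of its 4 arrays (0.0765 to 0.190) and without the intensity trend (0.0913).

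Atf3, a stress-induced bZIP protein that pairs with Jun and can repress transcription (1449363_at, chromosome 1, 191170296 to 191183333), varied widely between replicates on collagen. Levels there were 8.06 and 8.75 with vector, 8.04 and 9.11 with wild-type IDH1, 8.06 and 8.74 with wild-type IDH2, 8.28 and 8.59 with IDH1 R132C, and 8.47 and 8.29 with IDH2 R172K. In 4 of the 5 collagen groups replicate 2 was the higher, whereas on uncoated plates replicate 1 was, at 7.23 against 7.06 with vector and 7.39 against 6.99 with IDH1 R132C. All uncoated levels were below all collagen levels. Atf3 fell by 1.26 in vector cells (SE 0.32, 2.39-fold, adjusted p = 0.00960) and by 1.24 in IDH1 R132C cells (SE 0.32, 2.37-fold, adjusted p = 0.0121). Without replicate 2 of collagen vector the adjusted p was 0.0905, and without replicate 2 of uncoated vector 0.0603. With IDH1 R132C it was 0.0920 without the collagen replicate 2 and 0.110 without the uncoated replicate 2.

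Egr1, a zinc finger factor induced beside Fos by serum response factor (1417065_at, chromosome 18, 34861207 to 34864956), had collagen levels of 12.20 and 12.08 with vector, 12.22 and 12.10 with wild-type IDH1, 11.81 and 12.20 with wild-type IDH2, 11.80 and 11.81 with IDH1 R132C, and 11.75 and 11.46 with IDH2 R172K. On uncoated plates they were 11.63 and 10.82 with vector and 11.56 and 11.34 with IDH1 R132C. The lower vector culture on uncoated plates was the lowest of all 14, and the uncoated range overlapped that of IDH2 R172K on collagen. Egr1 fell by 0.92 in vector cells (SE 0.20, 1.89-fold, adjusted p = 0.00423). The corresponding difference with IDH1 R132C was -0.36 (95% interval -0.80 to 0.087, adjusted p = 0.240); in a fit of the 4 IDH1 R132C arrays alone it passed (SE 0.084, adjusted p = 0.0139).

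Ier3, an early gene that modulates ERK signalling and survival (1419647_a_at, chromosome 17, 35821713 to 35822911), had collagen levels of 13.07 and 13.06 with vector, 13.08 and 13.01 with wild-type IDH1, 13.01 and 13.17 with wild-type IDH2, 12.76 and 12.98 with IDH1 R132C, and 12.59 and 13.01 with IDH2 R172K. On uncoated plates they were 12.66 and 12.26 with vector and 12.78 and 12.38 with IDH1 R132C. Among the 7 groups only the 2 mutants on collagen reached down into the uncoated range. Ier3 fell by 0.61 in vector cells (SE 0.16, 1.52-fold, adjusted p = 0.0121). That call was lost without replicate 1 of collagen vector (adjusted p = 0.0613) and without replicate 2 of uncoated vector (-0.41, adjusted p = 0.136). With IDH1 R132C the difference was -0.29 (95% interval -0.64 to 0.054, adjusted p = 0.215).

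Counted together, 7 members fell and 2 rose on uncoated plates in vector cells, against backgrounds of 14.2% of all genes lower and 15.1% higher (29.3% either way). The median difference of the 10 members was -0.80, and that of all genes -0.020. In IDH1 R132C cells 3 members fell (Fos, Fosl1 and Atf3) and 1 rose (Jund), against 12.3% lower and 13.6% higher (25.9% either way). The median there was -0.33, and that of all genes -0.028. The mean of both plate effects was called for 9 members, 8 lower (19.7% of all genes) and 1 higher (20.4%; 40.2% either way), Jun being the exception (0.28, adjusted p = 0.0601). Jun was called in 5 alternative settings, among them the mean of its 2 probe sets (0.43, adjusted p = 0.00840), array weights (0.0444), the filter on dim genes (0.0496) and without replicate 1 of collagen vector (0.0240) or of uncoated vector (0.0127). Its second probe set gave 0.58 (adjusted p = 0.00256 over all probe sets). Junb (-0.37, adjusted p = 0.0144 in limma) went the other way and lost its call in 4 of 19 alternative settings. In each of those 1 array was left out, and the difference was -0.33 to -0.25. The count of 4 in IDH1 R132C cells became 2 without collagen replicate 1 or 2 (14.7% and 16.8% of all genes called) and 1 without uncoated replicate 2 (13.4%). It became 6 in a fit of the 4 IDH1 R132C arrays alone (31.1%) and 5 with array weights (33.7%).

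**Figure D2:**
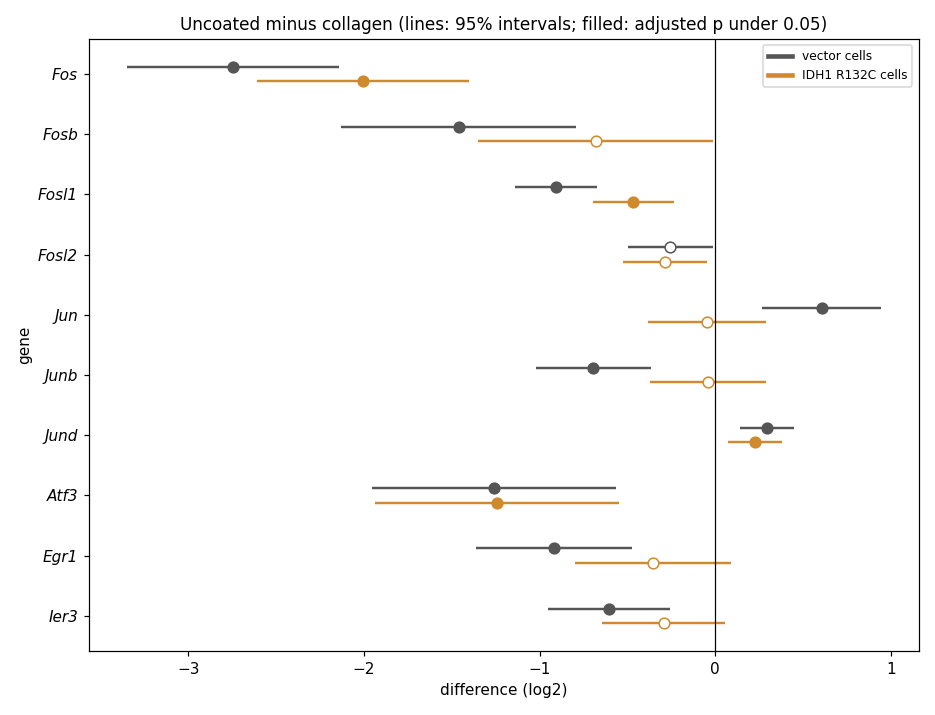
Difference between uncoated and collagen plates for each member (log2, horizontal axis) in vector cells (grey) and IDH1 R132C cells (orange), with 95% intervals from limma; filled points passed an adjusted p of 0.05. In vector cells 9 of 10 points are filled, with Jun and Jund to the right of 0; in IDH1 R132C cells 4 are, and Jun and Junb lie near 0.

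Other features of the cultures moved with the plate. The summed log2 level of the 15 hepatoblast and hepatic markers was 135.3 to 138.8 on uncoated plates, 126.1 to 128.9 in IDH2 R172K cells and 130.9 to 132.7 in the other collagen cultures. The 4 measured biliary markers summed to 44.9 to 46.6 on uncoated plates and 42.3 to 44.1 on collagen. The 8 measured blood markers summed to 40.0 to 41.3 in uncoated vector cells, against 37.9 to 39.7 on collagen, and ran from 38.2 to 40.1 in uncoated IDH1 R132C cells. Of these 8, Cd68, Csf1r and Cd3e had a mean above the lower quartile, and the pan-leukocyte gene Ptprc ranged from 3.73 to 6.45 over the arrays. The part of these shifts in the plate differences of the members was not tested. Signs of RNA quality overlapped between plates: the 3' signal of Gapdh minus its 5' signal was -0.073 to 0.14 on collagen and -0.025 to 0.040 on uncoated plates (log2), and for beta-actin 0.40 to 0.49 and 0.43 to 0.50. In such bulk RNA, fewer cells with a transcript and less of it in each cell cannot be told apart.

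Whether the plate acted differently in IDH1 R132C and vector cells was tested directly, as the IDH1 R132C plate difference minus the vector one. No member of the 10 passed, against a background of 0.25% of all genes, and 3 members had an unadjusted p under 0.05. For Junb this difference was 0.65 (SE 0.21, 95% interval 0.19 to 1.12, adjusted p = 0.497), for Jun -0.65 (SE 0.22, -1.13 to -0.17, adjusted p = 0.547) and for Fosl1 0.44 (SE 0.15, 0.11 to 0.77, adjusted p = 0.562). Fos gave 0.74 with an interval of -0.11 to 1.59, and Atf3 0.016 with an interval of -0.97 to 1.00. A smaller plate response in IDH1 R132C cells was thus not shown for any member.

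Between the 2 kinds of cell on uncoated plates, 1 member of 10 passed the test, against 2.39% of all genes (1.49% lower, 0.896% higher). Jun was lower in IDH1 R132C cells by 0.70 (SE 0.16, 1.63-fold, adjusted p = 0.0349), and its 4 arrays did not overlap. The second Jun probe set gave -0.75 (SE 0.18, adjusted p = 0.0576 over all probe sets). The call was lost without replicate 2 of uncoated vector (-0.48, adjusted p = 0.191), without replicate 1 or 2 of uncoated IDH1 R132C (0.269 and 0.0889), and in a fit of the 4 arrays alone (0.0893). Among the members, replicate 1 was the higher in both uncoated groups for 6 (Fos, Fosb, Fosl1, Atf3, Egr1 and Ier3) and replicate 2 for 2 (Jun and Junb). The share of all genes that agree in this way was not counted. Over all genes, deviations of same-numbered cultures from their group means correlated at r = 0.26 between these groups. Junb was 0.35 higher in IDH1 R132C cells (95% interval 0.023 to 0.68, adjusted p = 0.323), and Fos 0.28 higher (-0.32 to 0.88, adjusted p = 0.803).

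Among mutant and wild-type cells on collagen, 1 member passed the test, Fosl1, which was lower with the mutants. For IDH1 R132C alone the difference from wild type was below 0 for 8 of the 10 members, and above it for Fosl2 and Jund. The mean of both mutant minus wild-type differences was below 0 for all 10 members. Its median was -0.25 for the members and -0.014 for all genes, and the share of all genes below 0 was not counted. Fosl1 was lower by 0.33 (SE 0.076, 1.25-fold, adjusted p = 0.0347), 1 member of 10 against 3.61% of all genes called either way (2.44% lower, 1.18% higher). The 4 mutant arrays lay below the 6 other collagen arrays for 2 members, Fos and Fosl1 (6.19% of all genes did so), and above them for 0 (3.46%). The gaps were narrow, 0.016 for Fos and 0.032 for Fosl1, and Egr1 and Ier3 missed the same separation by 0.0031 and 0.00035.

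Same-numbered cultures on collagen deviated together, so the mutant comparisons were also fitted over the 10 collagen arrays with the replicate number as a block. This fit was chosen after seeing the data, and it also leaves out the uncoated arrays. In it, 3 members were lower for the mean of both mutants. They were Fosl1 (adjusted p = 0.0144), Fos (-0.55, SE 0.12, adjusted p = 0.0145) and Egr1 (-0.38, SE 0.088, adjusted p = 0.0222). Over all genes 7.67% were called either way and 5.04% lower. In the main fit, of all arrays and without the block, the adjusted p was 0.155 for Fos and 0.190 for Egr1. With the block over all arrays, 1 member was called for both mutants. The collagen arrays were not fitted together without the block, so its part in the Fos and Egr1 calls was not tested. The Fosl1 call without the block was lost in 12 of 20 alternative settings, among them 3 other normalisations (adjusted p = 0.0531 to 0.0551) and every left-out array of the 4 groups but replicate 2 of IDH2 R172K (0.0734 to 0.142).

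For IDH1 R132C against wild-type IDH1, 0 of 10 members passed limma's test with adjusted p-values, 0 had an unadjusted p under 0.05, and 0.0484% of all genes were called. Fos differed by -0.52 (95% interval -1.12 to 0.084) and Fosb by -0.62 (-1.29 to 0.050). These intervals include no change and more than a 2-fold fall. For IDH2 R172K against wild-type IDH2, 1 member passed, against 1.73% of all genes (1.14% lower, 0.597% higher). Fosl1 was lower by 0.52 (SE 0.11, 1.43-fold, adjusted p = 0.0328). With the replicate block over collagen arrays its adjusted p was 0.0124, and 4.54% of all genes were called (3.1% lower, 1.44% higher). Jun differed by -0.46 (-0.80 to -0.12, adjusted p = 0.158), Jund by -0.19 (-0.35 to -0.039, adjusted p = 0.190) and Fos by -0.59 (-1.19 to 0.017, adjusted p = 0.307).

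The Fosl1 call in IDH2 R172K cells rested on few arrays. It missed the threshold without either wild-type IDH2 culture (adjusted p = 0.216 and 0.163) or without replicate 1 of IDH2 R172K (0.138), with each array centred on its median (0.0569) and with cyclic loess (0.0509). Without replicate 2 of IDH2 R172K, Jund was called as well (-0.28, adjusted p = 0.0130), in a setting where 18.8% of all genes were called. The hepatic marker sum was lowest in this group, as given above, and its part in the result was not tested. The second Fosl1 probe set gave -0.51 (SE 0.15, adjusted p = 0.144 over all probe sets).

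**Figure D3:**
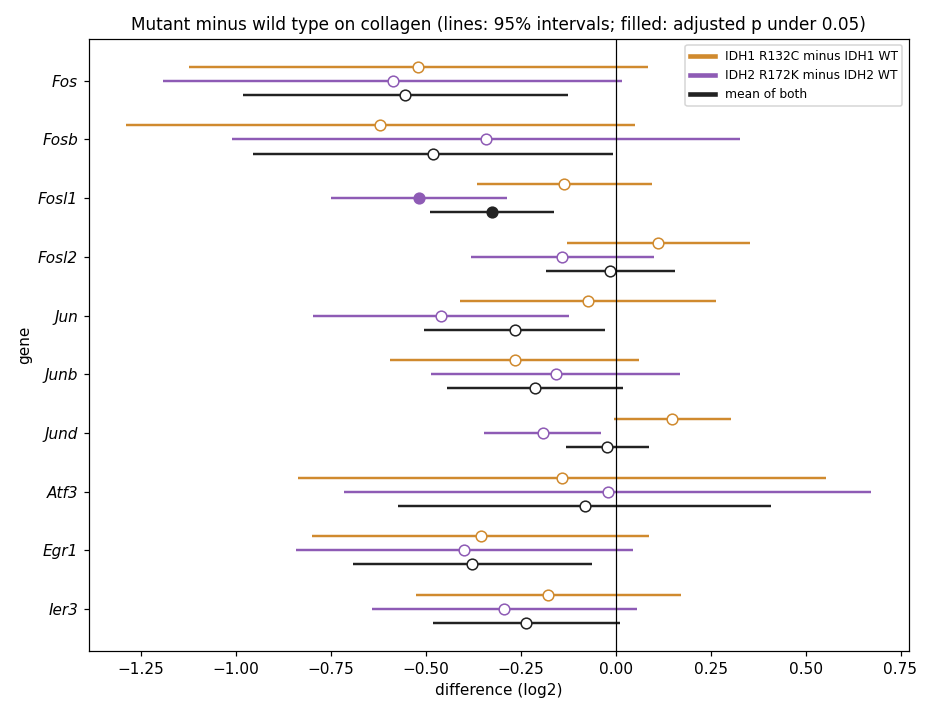
Mutant minus wild-type difference on collagen for each member (log2, horizontal axis), for IDH1 R132C (orange), IDH2 R172K (purple) and the mean of both (black), with 95% intervals from limma; filled points passed an adjusted p of 0.05. The 2 filled points are both Fosl1, at -0.52 in IDH2 R172K cells and -0.33 for the mean of both.

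Set against vector cells in place of wild type, Fosl1 was again the 1 member called in IDH2 R172K cells (-0.57, SE 0.11, adjusted p = 0.0128; background 4.27%, with 3.12% lower and 1.15% higher). With the replicate block over collagen arrays 4 members were lower, against 8.2% of all genes called either way and 5.65% lower. They were Fosl1 (adjusted p = 0.00487), Egr1 (-0.54, 0.0204), Jun (-0.46, 0.0386) and Fos (-0.61, 0.0429). With the block over all arrays, 1 member was called in this comparison. Without the block, Fosl1 lost its call without replicate 2 of collagen vector (0.108) and without replicate 1 of IDH2 R172K (0.0645), while without replicate 2 of IDH2 R172K Jund was called too (-0.30, adjusted p = 0.00867), in a setting where 21% of all genes were called. This comparison and the one above share the IDH2 R172K arrays and are not independent. Because no doxycycline dose is given for the IDH2 cultures, a difference in dose from vector cannot be told apart from the enzyme. The same holds for wild-type IDH2 against vector.

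Neither wild-type enzyme nor IDH1 R132C gave a member past the test against vector on collagen, 0 of 10 in each of the 3 comparisons by limma, where 0 of all genes were called either and 128, 116 and 936 genes had an unadjusted p under 0.05 for wild-type IDH1, wild-type IDH2 and IDH1 R132C. Wild-type differences of the members ran from -0.17 (Fosl1) to 0.17 (Atf3) for IDH1 and from -0.27 (Fosb) to 0.026 (Ier3) for IDH2. IDH1 R132C gave -0.30 for Fosl1 (95% interval -0.54 to -0.072, adjusted p = 0.515) and -0.46 for Fos (-1.07 to 0.14, adjusted p = 0.811). The difference between the effects of the 2 mutants was called for 0 of 10 members and 0 of all genes by limma. Among the members its unadjusted p was under 0.05 for Fosl1 (-0.38, adjusted p = 0.838) and Jund (-0.34, adjusted p = 0.838).

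Other early response genes went partly the same way on uncoated plates. Of 41 measured, 12 fell and 3 rose in vector cells, and 10 fell and 5 rose in IDH1 R132C cells, with medians of -0.22 and -0.087. Over all genes 14.2% fell and 15.1% rose in vector cells, and 12.3% fell and 13.6% rose in IDH1 R132C cells. The largest changes in vector cells were Ptgs2, the inducible prostaglandin synthase (-1.46), the transcription factor Klf2 (1.33), Phlda1 (-1.24) and the cytokine gene Lif (-1.23). In IDH1 R132C cells they were Ptgs2 (-1.80), Ifrd1 (-1.46), Klf2 (0.78) and Klf4 (0.73). Klf2 thus rose in both kinds of cell while Fos fell in both. Of 41 genes 0 were called for the difference between the plate effects by limma, against 0.25% of all genes.

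**Figure D4:**
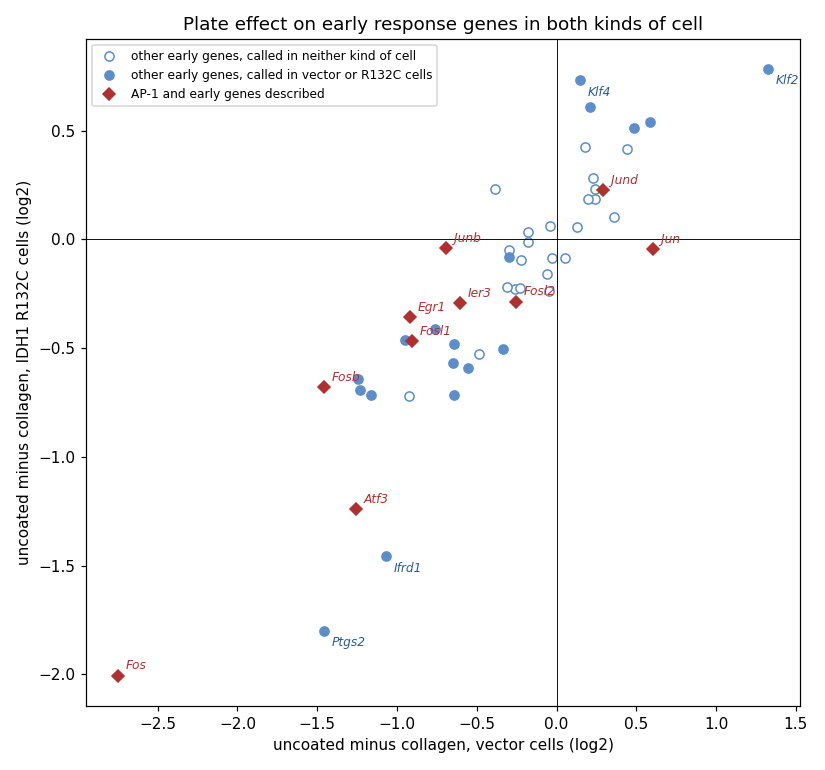
Uncoated minus collagen difference (log2) in vector cells (horizontal axis) and IDH1 R132C cells (vertical axis) for the members (red diamonds) and 41 other early response genes (blue circles, filled where called in either kind of cell). Fos lies farthest to the lower left, and Klf2 at the upper right.

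Of the bZIP partners and relatives of AP-1, 19 of 21 were measured, and 4 rose and 3 fell in vector cells. Over all genes 15.1% rose and 14.2% fell there. Ddit3, also called CHOP, rose by 1.06, and Bach1, a partner of the small Maf proteins, by 0.82; Atf7 rose by 0.62 and Maff by 0.59. In IDH1 R132C cells 2 rose (Bach1, 0.65, and Maff, 0.54) and 1 fell (Creb1, -0.47), against 13.6% of all genes higher and 12.3% lower. The median of this list was -0.056 in vector cells and 0.018 in IDH1 R132C cells, near that of all genes.

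The pathway that induces early response genes, from growth factor receptors through Ras and MAP kinases to serum response factor's partners, was measured by 28 of 35 genes. In vector cells 5 rose and 6 fell on uncoated plates, and in IDH1 R132C cells 4 rose and 3 fell. Over all genes 15.1% rose and 14.2% fell in vector cells, and 13.6% rose and 12.3% fell in IDH1 R132C cells. The receptor gene Erbb3 rose most, by 3.11 in vector cells (SE 0.24) and by 1.85 in IDH1 R132C cells, and Erbb2, which encodes its signalling partner, rose by 0.63 and 0.66. The epidermal growth factor receptor gene Egfr fell by 0.62 in vector cells, as did Elk3, a ternary complex factor, by 0.64. Of 9 measured feedback genes of ERK signalling, 1 of which is Ier3 itself, 6 fell and 0 rose in vector cells by limma, among them Spry2 (-0.92), Etv5 (-0.77) and Spry1 (-0.59). In IDH1 R132C cells 0 fell and 1 rose, Spred1 (0.63). For the difference between the plate effects 0 of the 9 were called, against 0.25% of all genes.

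Of 18 measured AP-1 target genes, out of 22 listed, 5 fell and 2 rose in vector cells and 5 fell and 1 rose in IDH1 R132C cells. Over all genes 14.2% fell and 15.1% rose in vector cells, and 12.3% fell and 13.6% rose in IDH1 R132C cells. In vector cells the integrin gene Itga2 fell by 1.36, Odc1, which encodes ornithine decarboxylase, by 1.12, the cyclin D1 gene Ccnd1 by 0.98 and Plau, the urokinase gene, by 0.88. With IDH1 R132C Sprr1a fell by 1.92, Itga2 by 1.12, Odc1 by 0.95 and Ccnd1 by 0.54. The Sprr1a value is imprecise, as its 2 uncoated IDH1 R132C cultures lay far apart (6.77 ± 1.14, SD). Between the kinds of cell on uncoated plates 3 targets were higher in IDH1 R132C cells, namely Plau (0.62), Ccnd1 (0.49) and Odc1 (0.47), and 0 were lower. Over all genes 0.896% were higher and 1.49% lower.

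On collagen, with both mutants taken against their wild types, 6 of the 41 other early response genes were lower and 0 higher by limma. Over all genes 2.44% were lower and 1.18% higher. The largest differences were those of Rhob (-0.66), Errfi1, a feedback inhibitor of the epidermal growth factor receptor (-0.57), Klf10 (-0.52) and Ier5 (-0.48). Of the ERK feedback genes 1 was lower, the ERK phosphatase gene Dusp6 (-0.40), and of the inducing pathway 1, the adaptor gene Shc1 (-0.35). Among AP-1 targets Odc1 was higher (0.32) and Mmp14 lower (-0.37). The bZIP relatives gave 0 calls. For IDH2 R172K alone, 3 other early response genes were lower and 0 higher: Errfi1 (-0.66), Ier5 (-0.56) and Ier2 (-0.51). Over all genes 1.14% were lower and 0.597% higher.

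Genes whose log2 levels ran most like those of a member over the 14 arrays were sought for the 4 members whose group means spanned at least 1 on the log2 scale. For Fos they were Gsr (Pearson r = 0.984), Dyrk3 (0.976) and Sema4f (0.974). For Atf3 they were Tars (0.973), Shmt2 (0.971) and Psph (0.970), which encode a threonyl-tRNA synthetase, the mitochondrial serine hydroxymethyltransferase and phosphoserine phosphatase. For Fosb they were Pura (0.917), Arf2 (0.910) and Pelo (0.907), and for Jun Sptssa (0.901), Cds2 (0.899) and Snap29 (0.880). The points share the plate contrast, which moves many genes, and these are descriptions of 14 arrays in 7 groups.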

How the data were processed

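RNA of 14 cultures was hybridised to Affymetrix Mouse 430A 2.0 arrays. The authors deposited 1 intensity value per probe set, summarised by RMA per the submitters' processing notes, without version or settings. The values, 5.84 to 26770, are linear, so log2 was taken; quantile-based steps in RMA bring arrays to similar distributions. Of 22690 probe sets 64 were controls, 20393 carried 1 gene symbol, 691 several and 1542 were not listed in the annotation. Each gene is the probe set with the highest mean over all arrays.

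The 7 group means were fitted with limma 3.58.1 (R 4.3.3; statmod 1.5.0) with a trended prior, 13 contrasts were taken, and p-values were adjusted by Benjamini-Hochberg over 12394 genes. A gene was called at an adjusted p under 0.05. SEs rest on 7 residual degrees of freedom plus 5.67 from the prior, pooled over groups. Replicates are separate cultures per the labels; the number of arrays limits the precision. A single gene tested alone by permutation of 2 against 2 cultures could not go below p = 0.333. The scripts were tested on simulated data.

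The members and lists were chosen with earlier results of these data known. The text names all 10 members, up to 4 called genes of each list by size of change, and the 3 genes most like a member, leaving out predicted genes and those under the 30th percentile. Gene positions are those of RefSeq's GRCm38.p6 table.

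Deviations of same-numbered collagen cultures from their group means correlated at r = 0.11 to 0.49 in all 10 pairs, so the numbers were taken to pair them; collagen with uncoated pairs gave -0.041 to 0.22 and were not paired. The 1 pair of uncoated groups gave 0.26, within the range of the collagen pairs. A single pair was taken as too few to pair them, and their comparison was fitted unpaired. The main fit had no replicate term for any comparison, those on collagen included, and the block was used as an alternative. Alternatives were other probe set rules, a filter on dim genes, other normalisations, no trend, fewer arrays, array weights, a replicate block, an added intensity of 16 and leaving out each array. A block over the collagen arrays alone was chosen after seeing the data. Protein sequences were not used here.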

Additional observations from a re-analysis of the deposited data

Results flagged for a closer look

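Jund was flagged because its mutant and wild-type arrays on collagen did not overlap, in opposite directions for the 2 enzymes. The share of all genes with such a pattern was not counted. Both IDH1 R132C cultures (12.84 and 12.76, log2) lay above both wild-type IDH1 cultures (12.65 and 12.64), and both IDH2 R172K cultures (12.39 and 12.56) lay below both wild-type IDH2 cultures (12.65 and 12.70). The IDH2 R172K effect minus the IDH1 R132C effect was -0.342 (SE 0.10, 95% interval -0.56 to -0.12). Its unadjusted p in limma was 0.0049, which comes from the arrays that flagged Jund and is no separate support. The adjusted p over all genes was 0.838, so the difference was not called. Neither mutant effect on Jund was called by itself. Over 20 alternative settings the difference ran from -0.43 to -0.255. The value of -0.43 was that without replicate 2 of IDH2 R172K. It rests on replicate 1 alone for that group, the array with the lowest median intensity.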

How the results depend on the processing

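Of 26 calls on members over all comparisons, 13 held under every alternative run, and none of 2177 recomputed member values with a call reversed. On uncoated plates Fos, Fosb, Fosl1 and Egr1 held in vector cells wherever they were tested (the filter on dim genes drops Fosb), and Fos in IDH1 R132C cells. With 1 array left out, members called ranged from 6 to 7 in vector cells, 1 to 3 in IDH1 R132C cells, 8 to 10 for the mean plate effect, 0 to 1 for uncoated IDH1 R132C against vector, 0 to 2 for IDH2 R172K against wild type and against vector, 0 to 1 for both mutants and 0 to 1 for the difference between mutants; the other comparisons stayed at 0. Uncoated IDH1 R132C against vector fell to 0 with only the arrays compared. IDH2 R172K against wild type fell to 0 with the mean of probe sets, cyclic loess, median centring, only the arrays compared and array weights. Both mutants together fell to 0 with cyclic loess, median centring, quantile normalisation, only the arrays compared and array weights. IDH2 R172K against vector fell to 0 with only the arrays compared and array weights. The causes were not tested.

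With the replicate block over all 14 arrays the counts were unchanged, 9 for the plate in vector cells, 4 in IDH1 R132C cells, 9 for the mean plate effect, 1 for each comparison with 1 call, and 0 for the others. The call of Jun between uncoated groups then had an adjusted p of 0.0240, with 505 genes called against 296. With the replicate block over collagen arrays only, 3 members were called for both mutants and 4 for IDH2 R172K against vector. The other counts did not change in that fit. That fit also leaves out the uncoated arrays. Over all 14 arrays the block alone left the counts for both mutants and for IDH2 R172K against vector at 1 each. The collagen arrays were not fitted together without the block, so the part of the block within them was not tested.

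Fosb on uncoated plates lies near background, and signal over background limits its fold. Differences in Fosl1 on collagen lie near the threshold, and 2 cultures a group leave intervals of over 1 log2 unit for Fos, Fosb and Atf3.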
